A study of Mus musculus with 6 samples.

Results

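The brush border is the carpet of microvilli on the apical surface of intestinal absorptive cells. In these libraries of sorted intestinal organoid cells it was followed through 34 genes, chosen by symbol, of the 56884 genes in the count tables: 19 hydrolases, 10 structural proteins of the microvillus, 2 membrane mucins, 1 lectin and both subunits of the cobalamin receptor. All 34 symbols were found. The question was how far the enzymes and the structural proteins changed together in the libraries labelled 4-OHT.

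The mice behind the small intestinal organoids carried Villin-CreERT2, the allele Lgr5-EGFP-IRES-CreERT2 and a floxed gene, Ythdf2fl/fl. Lgr5-GFP+ cells were collected by sorting on day 4 or day 6 after exposure to 0.5 µM 4-hydroxytamoxifen (4-OHT), which activates the fusion recombinase CreERT2, or to ethanol (EtOH), its vehicle. Every group carried both CreERT2 constructs and the floxed Ythdf2 gene, which encodes a reader of N6-methyladenosine in RNA. The groups were EtOH at day 6 (2 libraries), 4-OHT at day 6 (2 libraries), EtOH at day 4 (1 library) and 4-OHT at day 4 (1 library). CreERT2 was driven by the villin promoter, active throughout the intestinal epithelium, and by Lgr5; in which cells it recombined was not analysed here. With no 4-OHT group lacking the floxed allele, an effect of 4-OHT or of Cre cannot be told apart from an effect of losing Ythdf2. The labels do not say whether libraries came from separate mice or cultures, so p-values measure only the spread between these libraries. The titles of the day 4 libraries have another form than those of day 6. A difference between days therefore cannot be told apart from a difference between these sets of libraries.

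Gene counts ran from 14345379 to 21461835 per library. Ythdf2 itself went against the labels. It stood at 82.7 and 76.1 CPM (counts scaled to a common library size and composition) with EtOH and 208 and 205 CPM with 4-OHT at day 6, and at 76.1 and 166 CPM at day 4, so it was higher after the treatment meant to remove it (log2 fold change at day 6 1.37, SE 0.16, adjusted p = 0.0018 by edgeR's quasi-likelihood test). Counts over a whole gene do not show the deleted part, so the treated libraries are called "labelled 4-OHT" throughout, and every direction below rests on those labels. The stem cell marker Lgr5, used for the sort, was detected in all 6 libraries. At day 6 it had 249.9 and 345 CPM with EtOH and 209.6 and 228 CPM with 4-OHT (log2 fold change -0.45, SE 0.19, adjusted p = 0.413 by edgeR). At day 4 it had 368 CPM with EtOH and 271 CPM with 4-OHT. Of 15 other enterocyte genes that are not among the 34, 10 rose and 0 fell at day 6 (adjusted p under 0.05 by edgeR). Over all 14066 genes tested, 2.27% rose and 0.235% fell. The summed level of the 15 genes was 1848 and 1932 CPM with EtOH against 4406 and 3501 CPM with 4-OHT. At the same threshold, goblet markers rose in 2 of 8 cases (Clca1, Zg16) and Paneth and enteroendocrine markers in 0 of 8 and 0 of 9. Summed goblet markers were 3380.0 and 3485 CPM with EtOH and 2895 and 2607 CPM with 4-OHT. Most of this sum was 1 gene, Fcgbp, at 2195 and 2437 CPM with EtOH and 1591 and 1695 CPM with 4-OHT. Olfm4 (1 of 10 stem cell markers) and Dclk1 (1 of 5 tuft markers tested) fell. Summed stem cell markers were 6284 and 5868 CPM with EtOH and 4248 and 3927 CPM with 4-OHT. Of these sums, Olfm4 alone was 3303 and 2247 CPM with EtOH and 1325 and 988 CPM with 4-OHT. The log2 fold change was above 0 in 3 of the 10 stem cell markers. Summed over 8 immune markers, the day 6 level was 0.794 and 0.987 CPM with EtOH and 1.82 and 0.591 CPM with 4-OHT; Ptprc and Cd8a had 0 counts in all 4 day 6 libraries, Itgae had 10 and 11 counts with EtOH and 24 and 4 with 4-OHT, and the others had at most 5 counts in a day 6 library. In bulk RNA, more cells of a type and more RNA per cell cannot be told apart, and the part that a change in cell makeup had in the values below was not tested.

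Microvilli are held up by bundles of actin filaments crosslinked by proteins such as villin and espin, tied to the membrane by ezrin and myosin motors, and joined at their tips by protocadherin links. The membrane carries the digestive hydrolases that split disaccharides, peptides and phosphate esters, and transmembrane mucins that form the glycocalyx. As absorptive cells leave the crypt and move up the villus, both sets of genes are switched on, and transcription factors of the HNF4, HNF1, CDX and GATA families are well known regulators of them.

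The stretches directly upstream of 4 hydrolase genes are printed because short motifs of these families occur in them. Each is the 250 bases before the start of the gene's canonical GENCODE transcript in GRCm39, 5′ to 3′ on the gene's strand, and is identical to the corresponding part of the RefSeq promoter (GRCm38.p6). Capitals mark matches, on either strand, to CAAAGTCCA (HNF4), GTTAAT (HNF1), TTTATG (CDX) and, for the GATA family, AGATAA and its variant TGATAA. Alpi, encoding intestinal alkaline phosphatase, is upstream sequence chr1:87029329-87029578 on the minus strand, Treh (trehalase) is chr9:44584280-44584529 on the plus strand, Sis (sucrase-isomaltase) is chr3:72875197-72875446 on the minus strand, and Lct (lactase) is chr1:128256056-128256305 on the minus strand.
Alpi: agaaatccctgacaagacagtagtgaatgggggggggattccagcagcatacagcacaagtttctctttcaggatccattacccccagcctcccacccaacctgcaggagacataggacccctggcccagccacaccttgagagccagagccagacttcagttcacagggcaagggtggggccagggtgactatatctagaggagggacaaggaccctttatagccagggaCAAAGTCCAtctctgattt
Treh: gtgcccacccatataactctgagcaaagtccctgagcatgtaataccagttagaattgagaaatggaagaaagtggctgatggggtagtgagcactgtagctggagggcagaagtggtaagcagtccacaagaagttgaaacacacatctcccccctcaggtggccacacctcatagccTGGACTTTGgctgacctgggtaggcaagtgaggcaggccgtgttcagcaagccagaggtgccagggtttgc
Sis: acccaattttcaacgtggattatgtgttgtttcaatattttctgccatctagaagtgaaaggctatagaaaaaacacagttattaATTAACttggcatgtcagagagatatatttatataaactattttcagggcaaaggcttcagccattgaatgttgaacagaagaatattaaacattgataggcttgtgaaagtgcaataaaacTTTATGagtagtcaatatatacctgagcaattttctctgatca
Lct: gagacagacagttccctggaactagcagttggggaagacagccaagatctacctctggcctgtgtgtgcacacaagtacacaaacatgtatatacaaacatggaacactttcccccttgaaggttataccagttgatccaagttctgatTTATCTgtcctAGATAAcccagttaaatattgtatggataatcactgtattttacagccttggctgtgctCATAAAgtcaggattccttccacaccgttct
The HNF4 letters began 19 bases before the Alpi start and 71 bases before the Treh start. Sis held the HNF1 letters (165 bases before the start) and the CDX letters (43 bases before the start). Lct held the CDX letters 31 bases and the GATA letters 101 and 90 bases before its start.

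Over all 34 genes the HNF4 letters were found upstream of 3 (Alpi, Treh and the mucin gene Muc13), which is 8.82% against 0.372% of the 21770 windows of the same length at protein-coding genes. The HNF1 letters were found upstream of 5 members (14.7%, against 6.28% of all windows), the CDX letters upstream of 7 (20.6%, against 10%) and the GATA letters upstream of 7 (20.6%, against 15.9%). These are matches of letters, described without a test, and they do not show binding. Of the 3 genes with the HNF4 letters, Alpi and Treh rose at day 6 and Muc13 had 514 and 517 CPM with EtOH and 613 and 553 CPM with 4-OHT (adjusted p = 0.848 by edgeR).

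At day 6, 16 of the 33 brush border genes that passed the low-count filter rose in the libraries labelled 4-OHT and 0 fell, where 2.27% of all 14066 genes tested rose, 0.235% fell and 2.51% did either (edgeR's quasi-likelihood test, adjusted p under 0.05). They were 10 of 18 hydrolases tested, 4 of 10 structural proteins, the mucin Muc17 and the lectin Clec2h. Changes were at least 2-fold in 14 of the 16. At an unadjusted p under 0.05, 24 members differed, all but Amn in the higher direction, where 7.54% of all genes were higher. The median log2 fold change was 0.89 over the 33 genes against -0.01 over all genes tested. Both 4-OHT libraries were above both EtOH libraries in 26 of the genes, against 20.7% of all genes, and below both in 3, against 18.0%. The gene that failed the filter was Tmprss15, which encodes enteropeptidase, the activator of trypsinogen, with 3 and 2 counts in the EtOH libraries and 4 and 0 counts in the 4-OHT libraries at day 6, and 0 at day 4.

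The count rested partly on single libraries. When the test was repeated on 3 libraries, it called 7 members without EtOH replicate 1, 10 without EtOH replicate 2, 12 without 4-OHT replicate 1 and 15 without 4-OHT replicate 2. Calls on Alpi, Akp3, Anpep, Ggt1, Muc17 and Clec2h (6 genes) were made in each of the 4 repeats.

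**Figure D1:**
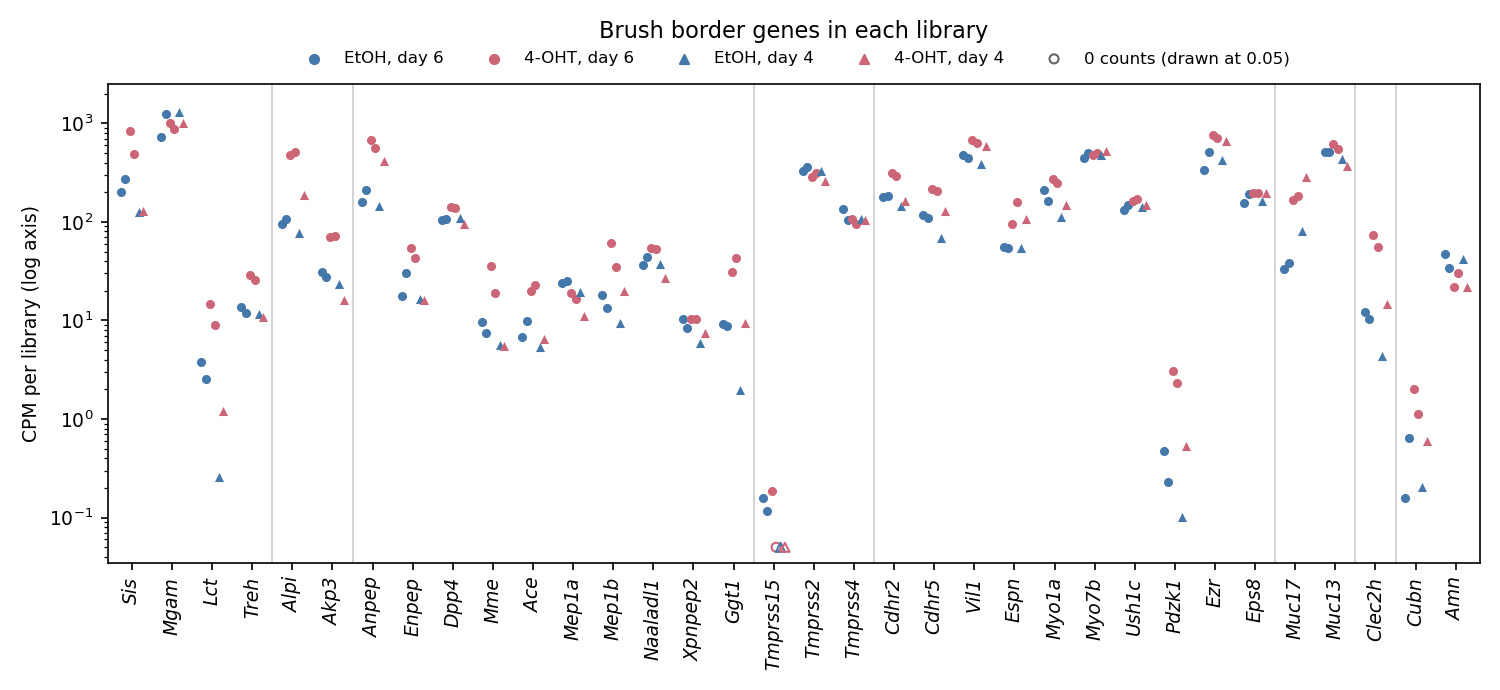
CPM of each of the 34 brush border genes on a log axis, with 1 point per library; circles are day 6, triangles day 4, blue EtOH, red 4-OHT, and open symbols 0 counts. Grey lines part carbohydrases, phosphatases, peptidases, transmembrane serine proteases, structural proteins, membrane mucins, the lectin and the cobalamin receptor, and the red day 6 circles lie above the blue ones in 26 genes.

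Of the 4 carbohydrases, which split dietary sugars at the membrane, 3 rose at day 6. Sis, which cleaves sucrose and isomaltose, had 200.3 and 275 CPM with EtOH and 841 and 483 CPM with 4-OHT. Both treated libraries were above both controls, and they differed from each other by more than the controls did (log2 fold change 1.47, SE 0.26, adjusted p = 0.0173 by edgeR). At day 4 the same gene had 126 and 129 CPM, a ratio of 1.03 with a 95% interval of 0.967 to 1.09 (intervals of day 4 ratios reflect counting error alone). Lct, which cleaves milk sugar, was scarce, at 3.81 and 2.55 CPM with EtOH and 14.6 and 9.08 CPM with 4-OHT (log2 fold change 1.88, SE 0.35, adjusted p = 0.021 by edgeR). Its day 4 values were 0.256 CPM (5 counts) with EtOH and 1.21 CPM (18 counts) with 4-OHT, a ratio of 4.72 (1.69 to 16.3). Treh had 13.7 and 11.8 CPM with EtOH and 28.8 and 25.6 CPM with 4-OHT (log2 fold change 1.09, SE 0.22, adjusted p = 0.0309 by edgeR), and 11.7 and 10.8 CPM at day 4. Left without EtOH replicate 1, or without EtOH replicate 2, the calls on Sis and Lct were lost, and that on Treh was lost in 3 of 4 such tests. The log2 fold change without EtOH replicate 1 and without EtOH replicate 2 was 1.26 and 1.71 for Sis, and 2.21 and 1.63 for Lct. For Treh it ran from 0.98 to 1.20 with 1 library left out.

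Mgam, maltase-glucoamylase, which releases glucose from starch fragments, did not follow the other carbohydrases. It was the most abundant hydrolase per kilobase of exon (exons of all annotated transcripts joined) in the EtOH libraries. At day 6 it had 722 and 1232 CPM in EtOH and 1012 and 873 CPM in 4-OHT libraries. The control libraries lay on either side of both treated libraries (log2 fold change -0.06, SE 0.25, adjusted p = 0.975 by edgeR). At day 4 it had 1303 CPM with EtOH and 1001 CPM with 4-OHT, a ratio of 0.767 (counting interval 0.752 to 0.783).

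Both alkaline phosphatases rose at day 6. Alpi and Akp3 are neighbouring paralogs that remove phosphate groups at the microvillus, at chr1:87025724-87029328 (minus strand) and chr1:87052695-87055634 (plus strand) in GRCm39. No 75-base stretch of the canonical transcript of either gene had an exact match in a transcript of another gene. Exact reads of that length from these 2 transcripts can therefore be told apart. Other exon bases and inexact matches were not checked. Alpi rose from 95.4 and 107 CPM to 478 and 507 CPM, with both treated libraries far above both controls (101 ± 8.49 against 492 ± 20.3 CPM, mean ± SD, n = 2, log2 fold change 2.27, SE 0.17, adjusted p = 0.000139 by edgeR). Akp3 rose from 30.7 and 27.4 CPM to 70.9 and 71.6 CPM (log2 fold change 1.29, SE 0.18, adjusted p = 0.00445 by edgeR). At day 4 the paralogs stood in opposite order between the 2 libraries. Alpi had 77.3 CPM with EtOH and 186 CPM with 4-OHT, a ratio of 2.41 (2.26 to 2.57), whereas Akp3 had 23.3 and 16.3 CPM, a ratio of 0.697 (0.594 to 0.816).

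Of the 10 peptidases, 5 passed the test at day 6 and 9 had a log2 fold change above 0. In 8 of them both treated libraries were above both controls. Whether those called differed from the others was not tested. Anpep, aminopeptidase N, which trims residues from the amino end of peptides, had 159 and 209.7 CPM with EtOH and 671 and 564 CPM with 4-OHT at day 6 (log2 fold change 1.74, SE 0.19, adjusted p = 0.00148 by edgeR). Its day 4 values, 146 CPM with EtOH and 414 CPM with 4-OHT, stood in a ratio of 2.83 (2.70 to 2.95). Anpep was thus higher in every library labelled 4-OHT than in every EtOH library. Ggt1, gamma-glutamyltransferase, which breaks down extracellular glutathione, rose from 9.16 and 8.82 CPM to 30.8 and 43 CPM (log2 fold change 2.03, SE 0.24, adjusted p = 0.00207 by edgeR) and had 1.95 and 9.42 CPM at day 4, a ratio of 4.83 (3.35 to 7.1).

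Mep1b, the beta subunit of the metalloprotease meprin, rose from 17.9 and 13.5 CPM to 60.6 and 35.2 CPM at day 6 (log2 fold change 1.60, SE 0.28, adjusted p = 0.0147 by edgeR) and had 9.49 and 19.7 CPM at day 4. The gene for the alpha subunit, Mep1a, did not rise with it. Mep1a had 23.7 and 25.3 CPM with EtOH and 19.2 and 16.6 CPM with 4-OHT at day 6, and 19.6 and 11.2 CPM at day 4. All 3 treated libraries lay below all 3 controls, but neither the day 6 test (log2 fold change -0.46, SE 0.21, adjusted p = 0.495 by edgeR) nor the test over both days (-0.56, adjusted p = 0.0864) passed the threshold, whereas DESeq2 called it lower over both days (-0.57, adjusted p = 0.0352).

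Mme, neprilysin, rose from 9.69 and 7.55 CPM to 35.8 and 19.1 CPM at day 6 (log2 fold change 1.66, SE 0.32, adjusted p = 0.0223 by edgeR), and had 5.69 and 5.45 CPM at day 4. Ace, the angiotensin-converting peptidyl dipeptidase, rose from 6.77 and 9.98 CPM to 20.1 and 23.1 CPM (log2 fold change 1.36, SE 0.26, adjusted p = 0.0246 by edgeR), and had 5.44 and 6.46 CPM at day 4. Of the Ace exon bases, 17% overlap the antisense gene model Gm11651. For both genes the day 6 treated libraries were above every other library, and the counting interval of the day 4 ratio held 1. Without EtOH replicate 1, Mme, Ace and Mep1b no longer passed, and without EtOH replicate 2 Mme and Mep1b did not either. Mme was also lost without 4-OHT replicate 1. With 1 library left out, the log2 fold change ran from 1.14 to 2.04 for Mme, 1.11 to 1.66 for Ace and 1.16 to 1.93 for Mep1b.

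The other 4 peptidases did not pass the test at day 6. Enpep, aminopeptidase A, had 17.7 and 30.6 CPM with EtOH and 53.8 and 43 CPM with 4-OHT (log2 fold change 1.00, SE 0.26, adjusted p = 0.0955 by edgeR), and DESeq2 called it (adjusted p = 0.0136). Dpp4, dipeptidyl peptidase 4, had 105 and 106 CPM against 141 and 139 CPM (adjusted p = 0.345), a narrow but complete separation. Naaladl1, a relative of the folate hydrolase family, had 36.3 and 44.4 CPM against 54.4 and 53.5 CPM (adjusted p = 0.466), with 39.4% of its exon bases overlapping Sac3d1 on the other strand. Xpnpep2, a membrane aminopeptidase that cleaves before proline, had 10.3 and 8.36 CPM against 10.4 and 10.3 CPM (adjusted p = 0.941). At day 4, Dpp4 (0.881) and Naaladl1 (0.721) had ratios whose counting intervals lay below 1.

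The 2 transmembrane serine proteases with enough counts were no higher in the libraries labelled 4-OHT. Tmprss2 had 328 and 364 CPM with EtOH and 284 and 316 CPM with 4-OHT at day 6, and 328 and 260.0 CPM at day 4. All 3 treated libraries were below all 3 controls (log2 fold change at day 6 -0.21, SE 0.16, adjusted p = 0.768 by edgeR). Tmprss4 had 136 and 104 CPM against 107 and 95.9 CPM at day 6, where the groups overlapped (adjusted p = 0.753).

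Among the structural proteins, the protocadherins that link microvillus tips rose. Cdhr2 rose from 179 and 184 CPM to 312 and 294 CPM (log2 fold change 0.73, SE 0.15, adjusted p = 0.0378 by edgeR), and Cdhr5, its partner in the link, from 117 and 109.9 CPM to 214 and 208 CPM (0.89, SE 0.15, adjusted p = 0.0148). At day 4, Cdhr2 had 146 and 163 CPM, a ratio of 1.12 (1.06 to 1.18), and Cdhr5 had 68.4 and 128 CPM, a ratio of 1.87 (1.74 to 2.01). Both pairs of day 6 replicates were close to each other. The Cdhr2 call was the less firm: it was lost with no filter (adjusted p = 0.0556 by edgeR) and in each of the 4 tests on 3 libraries (log2 fold change 0.69 to 0.77). The Cdhr5 call was lost without 4-OHT replicate 1 (0.87).

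The anchors of the tip-link complex did not pass the test at day 6. Ush1c (harmonin), a scaffold of that complex, had 131 and 148 CPM with EtOH and 162 and 169 CPM with 4-OHT (adjusted p = 0.709 by edgeR). Myo7b, the motor that positions the complex, had 442 and 502 CPM against 481 and 496 CPM (log2 fold change 0.04, SE 0.16, adjusted p = 0.974 by edgeR), so the treated libraries fell between the controls. The protocadherins and their cytoplasmic partners, then, gave fold changes of 0.73 and 0.89 against 0.24 and 0.04 on the log2 scale; the difference between them was not tested.

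Actin bundlers and membrane linkers had positive log2 fold changes, of which 1 passed the test at day 6. Espn, espin, rose from 55.2 and 53.9 CPM to 94.5 and 161 CPM at day 6, the treated libraries being far apart (log2 fold change 1.22, SE 0.23, adjusted p = 0.0243 by edgeR), and had 54.4 and 107 CPM at day 4. The Espn call was lost in 3 of the 4 tests on 3 libraries (adjusted p up to 0.202). Vil1, villin, had 479 and 442 CPM with EtOH and 671 and 624 CPM with 4-OHT at day 6 and 386 and 584 CPM at day 4. All 3 treated libraries were above all 3 controls; the day 6 test did not pass (log2 fold change 0.48, SE 0.17, adjusted p = 0.259 by edgeR) and the test over both days did (0.53, SE 0.11, adjusted p = 0.024). Of the Vil1 exon bases, 26.1% overlap Usp37 on the other strand, and the villin promoter of the transgene is taken from this gene.

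Ezr, ezrin, which ties actin to the membrane, had 336 and 506 CPM with EtOH and 754 and 709 CPM with 4-OHT at day 6, and 425 and 660.1 CPM at day 4. It followed villin in passing over both days (log2 fold change 0.75, SE 0.15, adjusted p = 0.0232 by edgeR) and not at day 6 (0.79, SE 0.21, adjusted p = 0.105). Myo1a, the motor linking actin to the lateral membrane, had 212 and 163 CPM against 270.3 and 249 CPM (adjusted p = 0.352), and Eps8, a capping and bundling protein at the tip, had 155 and 191 CPM against 196 and 197 CPM (adjusted p = 0.844).

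Pdzk1, a scaffold for apical transporters, had the largest log2 fold change of the 33 genes, on few counts. It had 9 and 4 counts with EtOH (0.476 and 0.232 CPM) and 66 and 43 counts with 4-OHT (3.08 and 2.31 CPM) at day 6, and 2 and 8 counts at day 4. The day 6 log2 fold change was 2.88 (SE 0.57, adjusted p = 0.028 by edgeR), and limma-voom did not call it (adjusted p = 0.0516). Without EtOH replicate 1, or without EtOH replicate 2, the edgeR call was lost. With 1 library left out, the log2 fold change ran from 2.48 to 3.50. Of its exon bases, 43.1% overlap other genes, among them Gpr89 and Cd160 on the other strand, so without the strand setting reads there cannot be assigned to 1 gene.

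Of the 2 membrane mucins, 1 passed the test. The RefSeq promoter table (GRCm38.p6) has the name Muc3 for the promoter whose sequence lies at the start of the gene that GENCODE M39 calls Muc17, so the Muc17 values may be read as Muc3 under older names. Muc17, at chr5:137163770-137202830 on the minus strand, had 33.2 and 38.5 CPM with EtOH and 165 and 181 CPM with 4-OHT at day 6, without overlap (35.9 ± 3.75 against 173 ± 11.6 CPM, mean ± SD, n = 2, log2 fold change 2.26, SE 0.17, adjusted p = 0.000152 by edgeR). At day 4 it had 80.3 and 288 CPM, a ratio of 3.58 (3.38 to 3.80), so that the day 4 control was above both day 6 controls. Muc13, the more abundant mucin per length, had a day 6 log2 fold change of 0.17 (SE 0.17) and a day 4 ratio of 0.857 (0.828 to 0.887) from 429.6 and 368 CPM.

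Clec2h, a C-type lectin-like gene of the intestinal epithelium, rose from 12.2 and 10.4 CPM to 73.2 and 55.2 CPM at day 6 (log2 fold change 2.50, SE 0.22, adjusted p = 0.000474 by edgeR). It had 4.31 and 14.5 CPM at day 4, a ratio of 3.37 (2.61 to 4.39). Its 3 treated libraries were above its 3 controls.

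The 2 subunits of the receptor for intrinsic factor and cobalamin had log2 fold changes of opposite sign. Cubn, cubilin, which binds the ligand, had 3 and 11 counts with EtOH and 43 and 21 counts with 4-OHT at day 6 (log2 fold change 2.0, SE 0.69, adjusted p = 0.26 by edgeR). Amn, amnionless, which carries cubilin to the membrane, had 47.1 and 33.8 CPM with EtOH and 22 and 30.2 CPM with 4-OHT at day 6 (log2 fold change -0.64, SE 0.24, adjusted p = 0.311), and 42.5 and 21.8 CPM at day 4. All 3 treated libraries were below all 3 controls for Amn, and over both days it fell by 0.74 on the log2 scale (SE 0.18, adjusted p = 0.0493 by edgeR). That call sat at the threshold: it was lost with limma-voom, with edgeR's older quasi-likelihood method and with no day term. It was also lost without EtOH replicate 1 or 4-OHT replicate 1 of day 6. Without either day 4 library it was lost too, but those tests amount to the day 6 comparison, which did not call Amn.

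**Figure D2:**
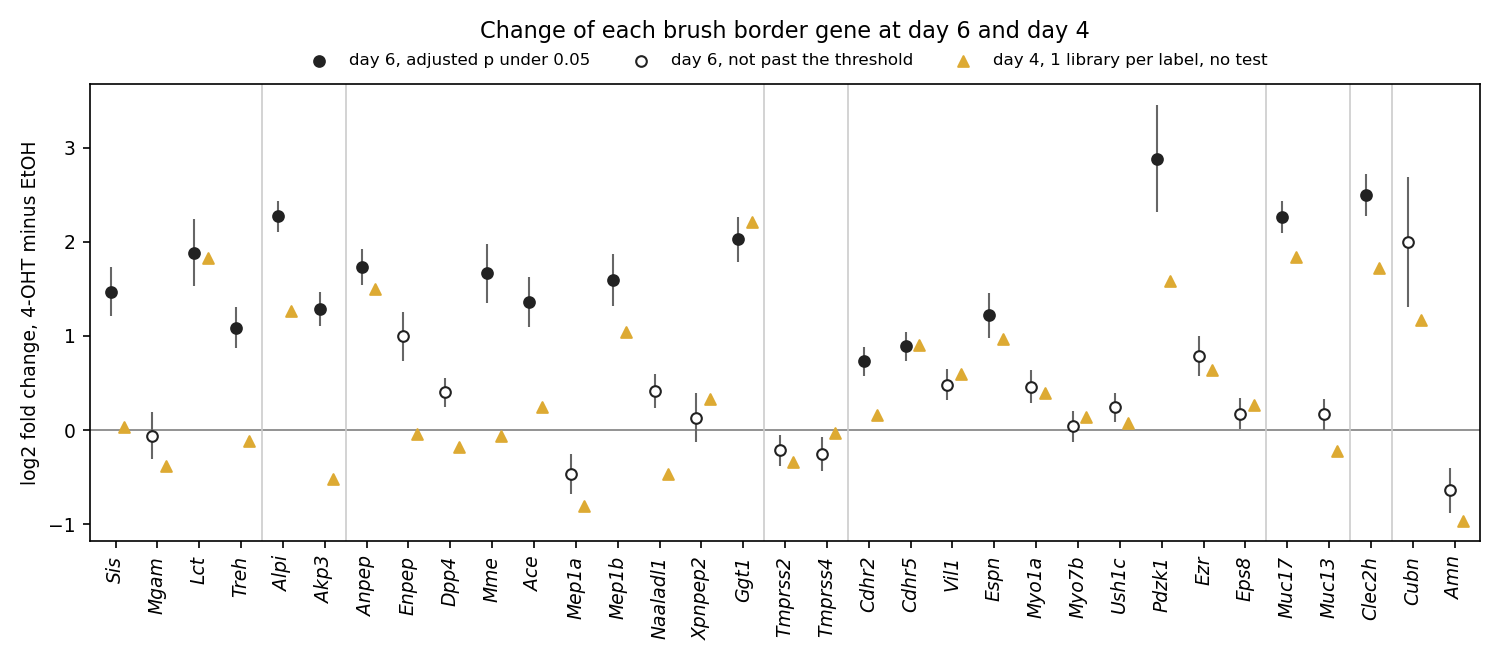
Log2 fold change of 33 brush border genes, 4-OHT minus EtOH, in role order; circles are day 6 with bars of 1 SE, filled where the adjusted p was under 0.05, and triangles are day 4, with 1 library per label and no test. The 16 filled circles all lie above 0, and among the hydrolases Sis, Treh, Akp3 and Mme have filled circles with triangles near or below 0.

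Levels per length put these changes in scale. Length was taken over the joined exons of all annotated transcripts of a gene, so another choice of transcript could change the order. In CPM per kilobase of exon, the day 6 EtOH libraries had most Muc13 (169 and 170), then Vil1 (98.7 and 91.2), Mgam (59.7 and 102) and Myo7b (65.9 and 74.9), and the 2 Mgam values spanned those of Vil1 and Myo7b. Least were Cubn (0.0106 and 0.0427), Tmprss15 (0.038 and 0.0278) and Pdzk1 (0.113 and 0.0553). In the day 6 libraries labelled 4-OHT, Alpi reached 204 and 217 CPM per kilobase from 40.8 and 46 with EtOH, beside 202 and 182 for Muc13. Anpep reached 162 and 136 from 38.4 and 50.5. So the phosphatase and the aminopeptidase, which had been below villin in the controls, were above it (138 and 129) in the treated libraries.

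Enzymes and structural proteins were then compared as classes, as a description without a test, since the genes were picked by name. At day 6 the median log2 fold change was 1.19 over 18 hydrolases and 0.61 over 10 structural proteins, a difference of 0.58. By the mean over members the difference was 0.17; that mean takes in Pdzk1 at 2.88 and the 4 hydrolases with values below 0 (Mgam, Mep1a, Tmprss2, Tmprss4). In the 2 libraries of day 4, over genes of at least 1 CPM (which leaves out Lct, Tmprss15, Pdzk1 and Cubn), the order was the other way round: -0.04 over 17 hydrolases and 0.39 over 9 structural proteins, a difference of -0.43. Hydrolases with at least a 2-fold change at day 4 were 4 of 17 (Alpi, Anpep, Mep1b and Ggt1), against 0 of 9 structural proteins and 4.50% of all 12864 genes of that level that were at least 2-fold higher.

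The structural proteins shared 1 sign. At day 6, 10 of 10 had a log2 fold change above 0, where 48.2% of all genes did, and at day 4 the counting interval of the ratio lay above 1 in 9 of 10 and held 1 in Ush1c. The hydrolases ranged from -0.46 to 2.27 at day 6. At day 4 their interval lay above 1 in 5 (Lct, Alpi, Anpep, Mep1b, Ggt1), below 1 in 6 (Mgam, Akp3, Dpp4, Mep1a, Naaladl1, Tmprss2) and held 1 in 7 (Sis, Treh, Enpep, Mme, Ace, Xpnpep2, Tmprss4). The share of all genes with a day 4 interval above or below 1 was not computed. The intervals hold counting error alone, so a ratio near 1 can exclude 1 at high counts, as in Cdhr2 (1.12, 1.06 to 1.18). Whether either class differed from other genes in these day 4 intervals was not tested.

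Summed over genes, hydrolases gave 1926 and 2589 CPM with EtOH and 3933 and 3327 CPM with 4-OHT at day 6, a ratio of means of 1.61. At day 4 the same sum was 2333 and 2322 CPM, a ratio of 0.995. Without Mgam the ratios were 2.10 and 1.28. The structural sum was 2106 and 2299.9 CPM against 3159.7 and 3110.1 CPM at day 6 (ratio 1.42) and 1975 against 2662 CPM at day 4 (ratio 1.35). The treated libraries were above the controls at day 6 in both sums, and at day 4 in the structural sum but not in the hydrolase sum. The day 4 hydrolase sum depended on Mgam, which was lower with 4-OHT there. Without Mgam it was 1030 CPM with EtOH and 1321 CPM with 4-OHT. In that sum Anpep went from 146 to 414 CPM and Alpi from 77.3 to 186 CPM. Of the 17 hydrolases of at least 1 CPM at day 4, 7 had a log2 fold change above 0.

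**Figure D3:**
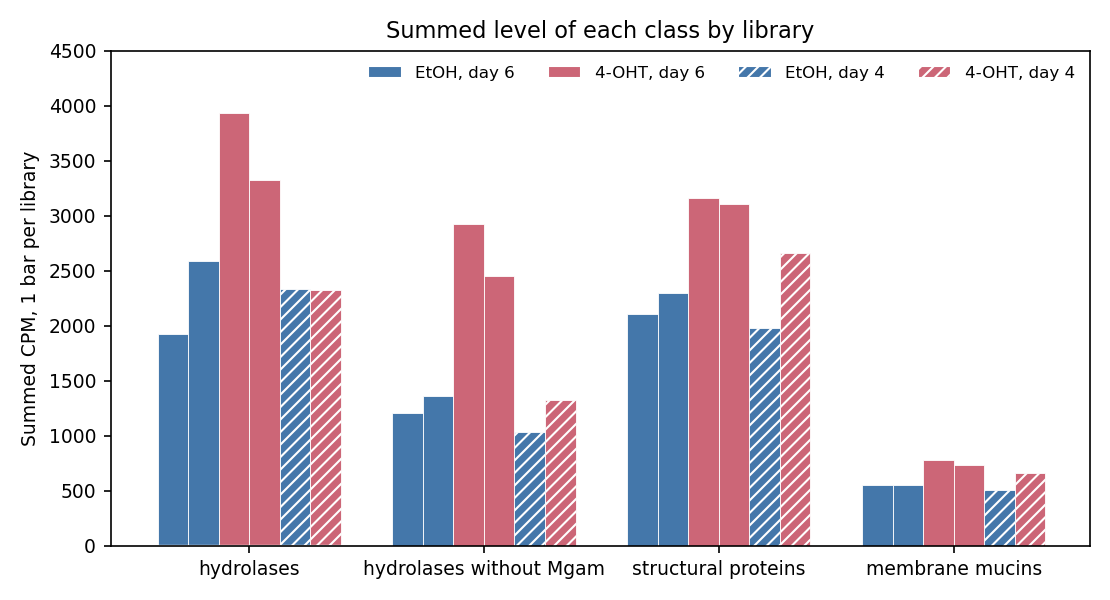
Summed CPM of 19 hydrolases, of the hydrolases without Mgam, of 10 structural proteins and of 2 membrane mucins, with 1 bar per library from 0; solid bars are day 6, hatched bars day 4, blue EtOH and red 4-OHT. The day 4 hydrolase bars stand at 2333 and 2322 CPM, while the structural bars stand at 1975 and 2662 CPM.

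A test over both days, with day as an additive term, used all 6 libraries and so shares the 4 day 6 libraries with the comparison above. It called 14 of 33 members higher and 1 lower, where 3.67% of 14060 genes were higher and 0.718% lower. Of the 16 genes called at day 6, 12 were called here too. The 4 that were not are all hydrolases: Sis (log2 fold change 1.01, adjusted p = 0.105 by edgeR), Treh (0.73, 0.148), Akp3 (0.75, 0.248) and Mme (1.22, 0.103), of which DESeq2 called Mme over both days (adjusted p = 0.0205). The 2 genes called higher here and not at day 6 are structural, Vil1 and Ezr, of which DESeq2 called Ezr at day 6 as well (adjusted p = 0.0113). The count by class was 6 of 18 hydrolases and 6 of 10 structural proteins. Leaving out 1 library at a time gave 9 (without 4-OHT replicate 1 of day 6) to 16 members called higher, and 9 genes were called in each of those 6 repeats (Alpi, Anpep, Mep1b, Ggt1, Cdhr5, Espn, Pdzk1, Muc17, Clec2h). Vil1 was lost in 5 of the 6, Ezr, Ace and Cdhr2 in 4 each, and Lct in 1. For Vil1 and Ezr the repeats without a day 4 library are among these losses. Those repeats amount to the day 6 comparison, in which neither Vil1 nor Ezr was called. Ace and Cdhr2 were lost without each of the 4 day 6 libraries. Over both days edgeR's older quasi-likelihood method did not call Ace or Cdhr2, and limma-voom did not call Cdhr2.

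All 3 libraries labelled 4-OHT were above all 3 EtOH libraries in 13 members: 4 hydrolases (Alpi, Anpep, Mep1b, Ggt1), 7 structural proteins (Cdhr5, Vil1, Espn, Ush1c, Pdzk1, Ezr, Eps8), Muc17 and Clec2h. The same held for 11.0% of all genes. All 3 were below in 3 members (Mep1a, Tmprss2, Amn), against 9.01% of all genes.

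Whether the effect at day 6 differed from that at day 4 was tested with an interaction term. By edgeR 0 members passed, and 0 of 14060 genes (0.00%), with 228 genes (1.62%) at an unadjusted p under 0.05. Members at that level were 6 hydrolases (Sis, Treh, Alpi, Akp3, Mme and Naaladl1) and 0 structural proteins. Akp3 had the smallest p, with an effect at day 6 that exceeded the day 4 effect by 1.80 on the log2 scale (SE 0.32, unadjusted p = 0.000188, adjusted p = 0.823 by edgeR). DESeq2 called 6 genes, 1 of them a member, Akp3 (adjusted p = 0.0199). For Sis the difference was 1.42 (SE 0.44) and for Mme 1.72 (SE 0.60), both with an adjusted p of 1. The spread in this test comes from the day 6 replicates alone, since day 4 has none. The sets of libraries also differed in genes with counts, 24195 (4-OHT) and 26521 (EtOH) at day 4 against 19522 to 20622 at day 6. A change with time thus cannot be told apart here from a difference between the sets of libraries.

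**Figure D4:**
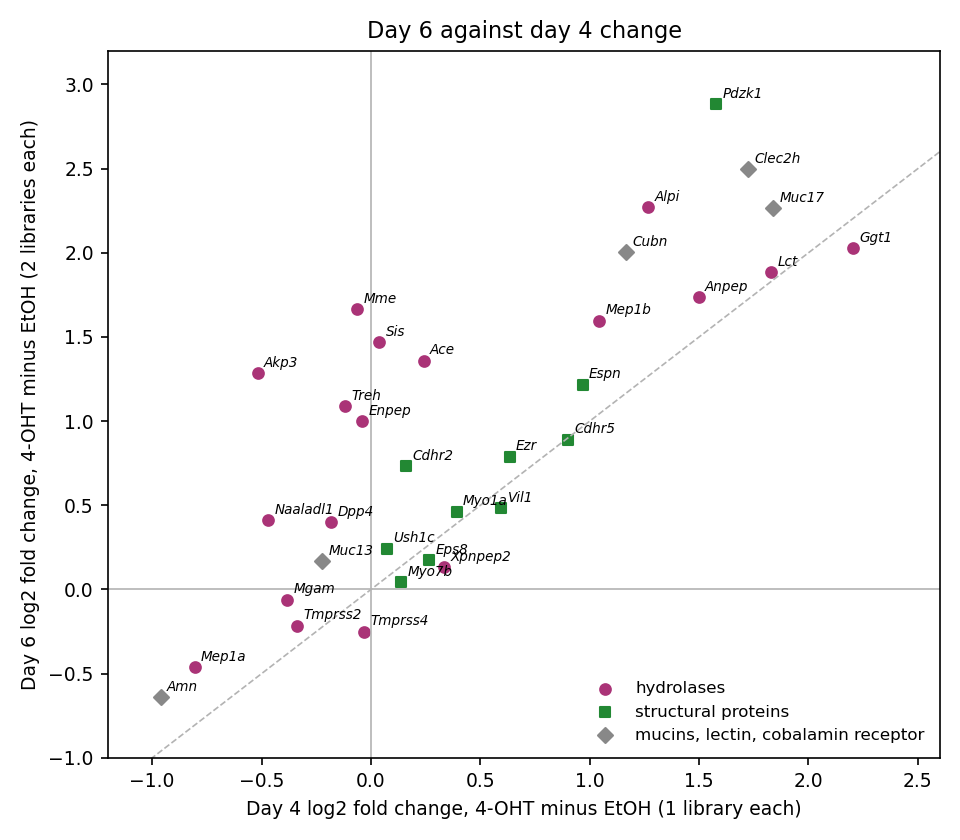
Day 6 log2 fold change (y axis, 2 libraries per label) against day 4 log2 fold change (x axis, 1 library per label) for 33 brush border genes, with the line of equal change dashed; circles are hydrolases, squares structural proteins, diamonds the other members. Squares lie near or above the line and right of 0, whereas Akp3, Mme, Treh, Sis and Enpep lie well above it at a day 4 value between -0.52 and 0.04.

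Markers of other cell types were read at day 4 as well. There, markers of Paneth cells (7 of 8) and enteroendocrine cells (8 of 9) were at least 2-fold higher in the library labelled 4-OHT, and 8 of 15 enterocyte markers were. The same held for 4.50% of all 12864 genes of at least 1 CPM. Summed Paneth markers were 399.7 CPM with EtOH and 1649 CPM with 4-OHT at day 4, and 2839, 2037, 4990 and 2037 CPM over the 4 day 6 libraries, with EtOH first. Their part in the day 4 values was not tested.

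Other brush border genes were read from fixed lists. Of 12 other membrane hydrolases tested at day 6, 4 rose and 0 fell, where 2.27% of all 14066 genes tested rose and 0.235% fell. Their median log2 fold change was 0.80. Enpp3, an ectonucleotide pyrophosphatase, rose from 1.11 and 1.28 CPM to 28.2 and 16.5 CPM (4.21, SE 0.38, adjusted p = 0.000512 by edgeR). Dpep1, a dipeptidase, rose from 5.13 and 4.88 CPM to 27.8 and 31.6 CPM (2.56, SE 0.24, adjusted p = 0.000567). Enpp7, alkaline sphingomyelinase, had 0 counts in both EtOH libraries and 3.55 and 1.99 CPM with 4-OHT, at least 16.7-fold higher against a limit of 3 counts per library.

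Of 25 other microvillus genes tested at day 6, 2 rose and 0 fell, against 2.27% and 0.235% of all genes tested. Their median was 0.27. Vill, a villin relative, rose from 6.03 and 8.18 CPM to 21.8 and 28.7 CPM (1.82, SE 0.27, adjusted p = 0.0058 by edgeR). Stk10, a kinase that phosphorylates ezrin-family proteins, rose from 5.13 and 3.25 CPM to 14.6 and 12.6 CPM (1.68, SE 0.31, adjusted p = 0.0192). Of 4 other membrane mucins tested, 0 were called (median 0.69), and their log2 fold changes differed widely. Muc3a had 38.3 and 39.8 CPM with EtOH and 26.3 and 25.1 CPM with 4-OHT (-0.61, adjusted p = 0.173 by edgeR), and Muc4 had 0.18. Muc12 (2.18) and Muc20 (1.20) had at most 40 counts in a day 6 library.

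Transcription factors tied to the brush border mostly did not pass the test. Of 15 tested at day 6, 2 rose and 0 fell, against 2.27% and 0.235% of all genes tested. Their median was 0.06. Hnf4a had 1027 and 1041 CPM with EtOH and 1057 and 1041 CPM with 4-OHT (log2 fold change 0.01, SE 0.18, adjusted p = 0.991 by edgeR), and Cdx2 had 311 and 287 CPM against 331 and 344 CPM (0.16, SE 0.16, adjusted p = 0.845). Those called were Klf4, an epithelial differentiation factor, from 44 and 61.2 CPM to 97.9 and 127 CPM (1.09, SE 0.21, adjusted p = 0.0238), and Maf, from 4.92 and 13.1 CPM to 36.5 and 28.4 CPM (1.85, SE 0.37, adjusted p = 0.0307).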

How the data were processed

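Messenger RNA of sorted Lgr5-GFP-positive organoid cells was sequenced in 6 libraries, grouped by the treatment and day in their labels. The authors deposited raw gene counts, whole numbers for 56884 Ensembl genes and 4 summary lines, which were left out. The summary lines held 19.3% to 21.0% of entries at day 6, and 25.0% (4-OHT) and 26.7% (EtOH) at day 4. Per the submitters' processing notes, STAR and mm39 were used; versions, annotation and strand setting are not given in the sources used here, so overlapping genes on opposite strands may share reads. Symbols, positions and exon lengths are those of GENCODE M39 on GRCm39, which matched 56323 identifiers (99.96% of gene counts).

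Counts were tested in R 4.3.3 with edgeR 4.0.16 (glmQLFit with legacy off, glmQLFTest, TMM scaling, filterByExpr by treatment with a minimum count of 10, Benjamini-Hochberg adjustment over all genes, threshold 0.05), with the SE taken as the log2 fold change over the square root of F. The day 6 test used 4 libraries, the test over both days 6 with day as a term, and the interaction 6. Day 4 fold changes used a prior count of 2, without a test, and day 4 ratios carry exact 95% intervals for counting error only. At 1 CPM a library held 14.3 to 21.5 counts. Replicates of day 6 differed by more than sampling noise (chi-square per degree of freedom 23.6 and 16.5). The labels do not say that replicate numbers pair libraries. Scripts were tested on simulated counts.

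The 34 genes, the other gene lists and the tests were chosen with earlier results of these data known. All 34 are named, and of each other list at most the 4 largest changes called at day 6, of which 1 gene is not reported here. Hnf4a, Cdx2, the other membrane mucins and the markers of other cell types named without a call were chosen after their values were seen. The edgeR settings were first left at the older default and then set to match an earlier analysis. The older default and the tests on 3 libraries were added as alternatives after seeing the data, and the 4 printed upstream sequences were chosen after the motif matches were seen. Of the listed symbols, 4 (Cpo, Gba3, Alpg, Muc3) were not matched by name. Alternatives were median-of-ratios scaling, other filters, DESeq2 1.42.0, limma-voom (limma 3.58.1), a replicate block, all 6 libraries in 4 groups, no day term, the omission of each library in turn and, at day 4, 0.5 as the prior count.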

Additional observations from a re-analysis of the deposited data

How the results depend on the processing

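At day 6, 16 members were called higher, and 15 to 19 (0 lower) under the scalings, filters and tools tried with all libraries. Cdhr2 was lost with no filter and with the older quasi-likelihood method (15 called; added after seeing the data), and Pdzk1 with limma-voom. DESeq2 added Enpep and Ezr. A replicate block raised the day 6 calls over all genes from 353 to 839 and those on members to 19 (adding Enpep, Ezr and Cubn). Deviations of same-numbered day 6 libraries correlated at r = 0.266 over genes, and no label says that the numbers pair them. Tests on 3 libraries, also added later, called 7 to 15 members (7 without EtOH replicate 1, 10 without EtOH replicate 2) and 99 to 409 genes.

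Over both days, DESeq2 called 2 members lower (Amn and Mep1a), and limma-voom and the older method 0. With no day term, 5 members were higher, 0 lower and 361 genes called. Leaving out each library gave 9 to 16 members higher, 0 to 1 lower and 361 to 699 genes. Leaving out either day 4 library left the other fitted by the day term, so that comparison is the day 6 one. In the interaction DESeq2 called 1 member and 6 genes, and leaving out a library gave 0 to 13 genes.

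The hydrolase minus structural difference, 0.58, was 0.17 by means and 0.20 over both days, reversed to -0.43 at day 4, and was 0.45 to 0.72 without each library. With 1 library left out, log2 values near 0 changed sign, and the cause was not tested. At day 6, tested on 3 libraries, these were Myo7b (-0.043 without EtOH replicate 1), Xpnpep2 (-0.013 without EtOH replicate 2) and Mgam (0.37 without EtOH replicate 2 and 0.039 without 4-OHT replicate 2). Over both days, leaving out 1 library moved Mgam from -0.38 to 0.044, Naaladl1 from -0.036 to 0.41 and Muc13 from -0.033 to 0.17. In the interaction the ranges were -0.020 to 0.72 for Mgam, -0.091 to 0.025 for Cdhr5, -0.21 to 0.57 for Espn, -0.14 to 0.27 for Myo1a, -0.12 to 0.44 for Ezr, -0.24 to 0.029 for Eps8 and -0.24 to 1.70 for Cubn. At day 4, 6 members were at least 2-fold higher under each scaling and prior count tried. Depth limits Tmprss15, Cubn, Pdzk1 and Lct most.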
